A study of Mus musculus with 96 samples.

Results

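The cells compared here are neurons of the mouse preoptic area whose response to temperature was classed as insensitive, 18 of them labelled as silent and 24 not. Membership was read from the temperature class in the labels alone, which takes in 42 of the 96 cells of the series, and no expression value entered the choice. The 24 cells are called firing cells below because their class lacks the word silent; no label gives a firing rate or says for either class how silence was judged. The other 54 cells were sensitive to warmth or cold, were silent and sensitive, or had no class.

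The preoptic area is a part of the hypothalamus from which body temperature is regulated. Most of its neurons release either GABA or glutamate, and neurons of both kinds are found side by side. A neuron that fires without synaptic input relies on small inward currents near rest, carried by the sodium leak channel NALCN, by hyperpolarization-activated HCN channels and by persistent sodium current, set against potassium leak through K2P channels. Firing lets calcium in, and calcium drives the transcription of immediate early genes such as Fos through the factor CREB, which binds cyclic AMP response elements. These gene groups were read first in the comparison of silent with firing cells.

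Each neuron was recorded in the whole-cell patch-clamp mode in a freshly cut brain slice, after which its contents were drawn into the glass pipette and the RNA was amplified by Smart-seq2 and sequenced from Nextera XT libraries (Patch-seq). Both groups came from C57BL/6N mice 2 to 3 months old, from the hypothalamus, with no genotype or drug named, and the recording preceded the harvest of every cell in both groups. A pipette draws up a variable part of 1 cell and can carry RNA of its neighbours, so less expression and less recovered RNA cannot be told apart in a cell. No label names an animal, slice or recording day. Cells are not replicates of a condition, so each group counts as 1 sample and the values below are descriptions with no p-value.

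Total read counts ran from 465167 to 2434090 in silent cells, with a median of 1103680, and from 838125 to 3138140 in firing cells, with a median of 1481900. Rn45s, the precursor of ribosomal RNA, took a median of 55.0% of the counts in silent cells (range 29.2 to 91.6%) and 45.4% in firing cells (25.8 to 72.1%). Counts outside Rn45s had medians of 362457 in silent and 761928 in firing cells, and genes with a count had medians of 3668.5 and 4022. In 4 silent cells and in 0 firing cells Rn45s took over 75% of the counts, and the main results are therefore given also without these 4 cells. Of 18 pan-neuronal genes, a median of 10 (range 4 to 17) reached 10 CPM (read counts scaled to a common total, 1000000, in every cell) in silent cells and 14.5 (8 to 18) in firing cells, so neuronal transcripts were present in every cell. No cells held identical values, and the highest correlation between the log values of any pair was 0.646.

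**Figure D1:**
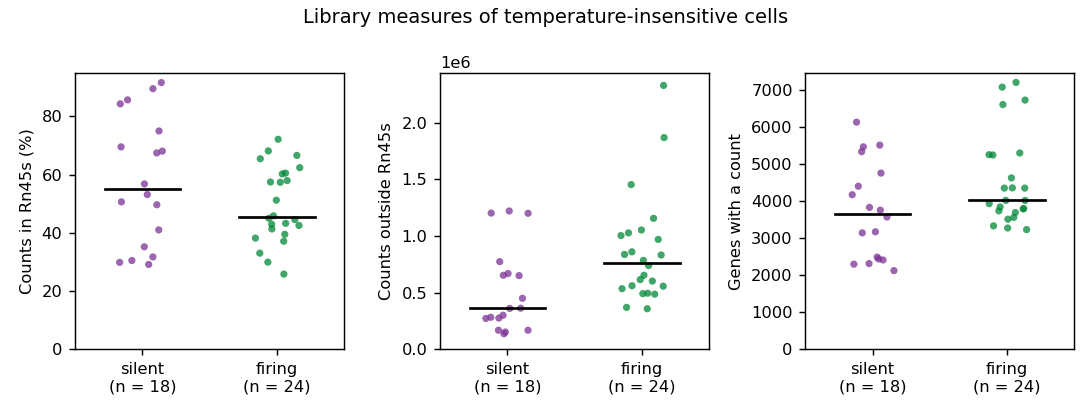
Library measures of each temperature-insensitive cell: percentage of counts in Rn45s, counts outside Rn45s, and number of genes with a count, with 1 point per cell and a line at the median. The 18 silent cells hold a higher median share of Rn45s (55.0%) than the 24 firing cells (45.4%), the 4 cells above 75% are all silent, and the groups overlap in each measure.

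Among transmitter genes the silent and firing cells differed most in Slc17a6, which encodes the vesicular glutamate transporter VGLUT2 of hypothalamic neurons (chromosome 7, 51622006 to 51671119, GENCODE M21 on mm10). Slc17a6 was at 0 CPM in the lowest, 0 in the median and 83.7 CPM in the highest silent cell, against 0, 19.8 and 844 CPM in firing cells. The groups overlapped at the low end, with 10 silent and 4 firing cells at 0. At 10 CPM or more, the level used for detection throughout, Slc17a6 was found in 2 of 18 silent cells (11.1%, 95% interval 1.38 to 34.7%) and in 12 of 24 firing cells (50%, 29.1 to 70.9%). The mean of log2(CPM + 1) differed by -3.21, silent minus firing, and by -2.97 to -3.53 when any 1 cell was left out. This scale understates differences of low genes, and the intervals, exact Clopper-Pearson for shares and exact Poisson for summed counts, cover counting error only.

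Gad1, which encodes the GABA-synthesizing enzyme GAD67 (chromosome 2, 70553072 to 70602014), went the other way. Gad1 was at 0, 92.1 and 963 CPM in the lowest, median and highest silent cell, against 0, 20.6 and 1022 CPM in firing cells. The ranges were nearly the same, and the difference lay in how many cells stood high: 12 of 18 silent cells (66.7%, 41.0 to 86.7%) and 12 of 24 firing cells (50%, 29.1 to 70.9%) reached 10 CPM. Its mean log2 difference was 1.53, or 1.27 to 1.86 with any 1 cell left out. Summed over cells, Gad1 made up 327 CPM (319 to 334) in silent and 124 CPM (120 to 127) in firing cells. Gad2, which encodes the second GABA-synthesizing enzyme GAD65, differed by 0.79 and was found in 12 silent and 14 firing cells. Slc32a1, the vesicular GABA transporter, was scarce, with 3 cells at 10 CPM in each group. By list, 1 of 4 eligible GABAergic genes was called higher and 0 lower, and 1 of 2 eligible glutamatergic genes lower and 0 higher, by the rule given below. Over all eligible genes 3.47% were called higher and 11.5% lower.

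Cells were then sorted by the transmitter genes they held. Gad1 or Gad2 without Slc17a6 was found in 13 of 18 silent cells (72.2%, 46.5 to 90.3%) and in 10 of 24 firing cells (41.7%, 22.1 to 63.4%). Slc17a6 without Gad1 or Gad2 was found in 0 of 18 silent cells, which allows a share of up to 18.5%, and in 5 of 24 firing cells (20.8%, 7.13 to 42.2%). Both kinds of transcript stood together in 2 silent and 7 firing cells, and neither in 3 silent and 2 firing cells. The share of cells with GABA genes alone was thus larger among silent cells and the share with Slc17a6 smaller, with intervals that overlap between the groups. When the 4 silent cells over 75% Rn45s were left out, Slc17a6 was found in 7.14% of silent and 50% of firing cells. With every cell thinned to 200000 counts outside Rn45s, which leaves out 4 silent and 0 firing cells, the shares with Slc17a6 were 7.14% in silent and 62.5% in firing cells. At a limit of a single count they were 44.4% in silent and 83.3% in firing cells.

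**Figure D2:**
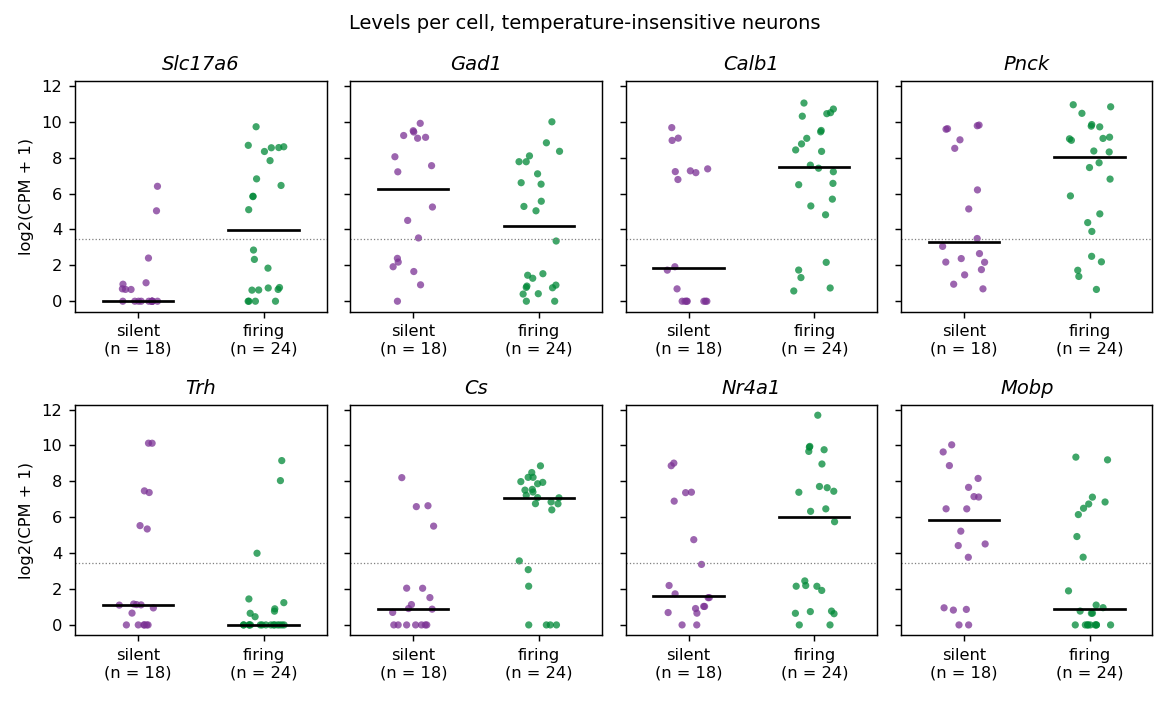
Levels of 8 genes in each temperature-insensitive cell as log2(CPM + 1), with silent cells (n = 18) left of firing cells (n = 24), a line at the group median and a dotted line at 10 CPM. Slc17a6, Calb1, Pnck, Cs and Nr4a1 stand lower in silent cells and Gad1, Trh and Mobp higher, and for all 8 genes the groups overlap.

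For the comparison across genes, a gene was eligible when no fewer than 25% of the silent or of the firing cells held it at 10 CPM, which 4836 of 24054 genes met. The median eligible gene differed by -0.74 on the log2(CPM + 1) scale, silent minus firing, and 3885 of 4836 genes (80.3%) were lower in silent cells. A gene was called higher or lower when its difference was at least 1 in size both as it stood and relative to the median gene, so that a higher call needed 1 and a lower call -1.74. By this rule 168 genes (3.47%) were called higher and 557 (11.5%) lower in silent cells, 15% in either direction. The split moves with the centring: there were 168 genes called higher and 1816 genes called lower without the median gene subtracted, and 680 and 557 relative to the median gene only. No eligible gene had groups that did not overlap (0 of 4836), and the median standard deviation between cells was 2.91 log2 units in silent and 2.94 in firing cells, so most differences named below are smaller than the spread between cells. Calls close to a limit can be lost when 1 cell is left out. Some genes were eligible through 1 group alone, such as Slc17a6 through firing cells and Elp4, Trh and Scn3b through silent cells. For such genes the filter itself favours a difference toward that group.

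When the 4 cells over 75% Rn45s were left out, the median difference was -0.25, and 585 of 5208 genes (11.2%) were called higher and 718 (13.8%) lower, 25% in either direction. These calls held 164 of the 168 higher and 470 of the 557 lower genes of the full set, which make up 28.03% of the higher and 65.5% of the lower calls there. With totals taken without Rn45s, 314 of 5369 genes (5.85%) were called higher and 732 (13.6%) lower, 19.5% in either direction. Among them were 168 of the 168 higher and 527 of the 557 lower genes, which make up 53.5% and 72.0% of the calls there.

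**Figure D3:**
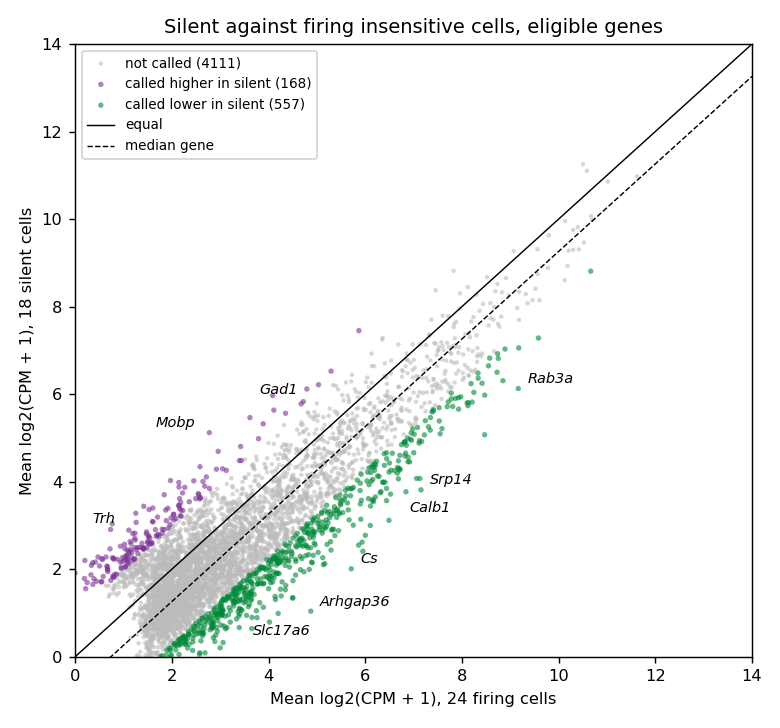
Mean log2(CPM + 1) of the 4836 eligible genes in the 18 silent cells (vertical axis) and the 24 firing cells (horizontal axis), with called genes in colour. The cloud lies below the line of equality, along the dashed line of the median gene (-0.74), and 557 genes called lower stand against 168 called higher.

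Of the 12 genes with the largest lower values, Cs, which encodes citrate synthase, the enzyme of the first step of the citric acid cycle (chromosome 10, 128337734 to 128362479), divided most cells of both groups into those with none and those with plenty. Cs was at 0, 0.861 and 295 CPM in the lowest, median and highest silent cell, against 0, 135 and 465 CPM in firing cells. It was found in 4 of 18 silent cells (22.2%, 6.41 to 47.6%) and 18 of 24 firing cells (75%, 53.3 to 90.2%), and its log2 difference was -3.70. Arhgap36, a GTPase-activating protein family member (chromosome X, 49463945 to 49500244), had the largest difference, -3.83. Its levels were 0, 0.205 and 122 CPM in silent cells, against 0, 32.0 and 2127 CPM in firing cells, with 2 silent and 14 firing cells at 10 CPM. The highest firing cell thus stood far above every silent cell, while 4 firing cells had no Arhgap36 count.

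Srp14, a subunit of the signal recognition particle that brings new secretory proteins to the endoplasmic reticulum, was found in 9 silent and 23 firing cells (difference -3.34). Usp9x, a deubiquitinase, was found in 8 silent and 21 firing cells (-3.37). Rgs2, a regulator that shortens G protein signalling, was found in 6 silent and 17 firing cells (-3.32). The motor subunit gene Dync1i1, of cytoplasmic dynein, was found in 5 silent and 18 firing cells (-3.23), and Glg1, of the Golgi apparatus, in 4 and 16 (-3.15). Rhbdd2, of the rhomboid family, was found in 4 silent and 18 firing cells (-3.54), and Pnmal1 in 5 and 18 (-3.31). Mapk8ip3, a scaffold of JNK signalling and axonal transport, was found in 1 silent and 16 firing cells (-3.16) and Ash1l, a histone methyltransferase, in 1 and 13 (-3.23), but both share exon sequence with neighbouring genes, so their reads cannot be assigned with certainty. With Slc17a6 these make up the 12, and each was called lower also without the 4 cells over 75% Rn45s and with totals without Rn45s.

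The 12 genes named by rank as higher in silent cells differed by 1.83 to 2.34 as they stood. Relative to the median gene they differed by 2.57 to 3.08, about the same size as the 12 lower genes (-3.09 to -2.41). Mobp, a protein of myelin (chromosome 9, 120149707 to 120181484), led with 2.34. It was at 0, 62.0 and 1049 CPM in the lowest, median and highest silent cell, against 0, 0.827 and 652 CPM in firing cells. Most silent cells and fewer firing cells held it, 13 of 18 (72.2%, 46.5 to 90.3%) and 9 of 24 (37.5%, 18.8 to 59.4%). Acsbg1, an acyl-CoA synthetase of very long-chain fatty acids, followed at 2.27, found in 7 silent and 2 firing cells. Ttll5, a tubulin polyglutamylase, was found in 6 silent and 0 firing cells (2.00). Elp4, of the elongator complex that modifies transfer RNA, was found in 5 of 18 silent cells (27.8%, 9.69 to 53.5%). Elp4 had no count in any of the 24 firing cells, which allows a share of up to 14.2% there. Acsbg1, Ttll5 and Elp4, and Zfhx3, Zscan26 and Rpap2 below, were eligible through the silent cells alone. Their low shares in firing cells are therefore partly set by the filter.

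Zfhx3, a homeobox transcription factor known for its part in the circadian clock of the neighbouring suprachiasmatic nucleus, was found in 9 silent and 5 firing cells (1.83). Rgs7bp, which anchors RGS7-family regulators of G protein signalling, was found in 10 silent and 7 firing cells (2.05), and Ppfia4, a liprin of presynaptic active zones, in 9 and 8 (1.84). Clpp, a protease of the mitochondrial matrix, was found in 13 silent and 11 firing cells (1.85) and Plekhb1 in 13 and 12 (1.88). Clk4, a kinase of splicing factors, was found in 9 silent and 6 firing cells (1.86), Zscan26 in 8 and 3 (2.02), and Rpap2, which acts on RNA polymerase II and overlaps exons of Glmn, in 8 and 5 (2.02). All 24 genes named by rank kept their sign under each of the 18 settings other than the main one. Title letters were among these, where cells are compared only with cells whose titles carry the same letter. Settings that change only a detection limit or call rule cannot alter a difference. The sign of the summed level was itself part of the rule for naming, so these settings say nothing about the sign.

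Channels of spontaneous firing were looked at as groups, and few were called. Of 8 eligible voltage-gated sodium channel genes 1 was called higher and 0 lower, beside 3.47% and 11.5% of all eligible genes, with a median difference of -0.17. The pore genes Scn2a1 (0.27), Scn1a (0.76), Scn3a (-0.61), Scn8a (-1.13) and Scn9a (-0.91) were not called. The called member was Scn3b, a beta subunit that modulates sodium current, found in 6 silent and 4 firing cells (1.55, or 1.23 to 1.80 with any 1 cell left out). Another beta subunit, Scn2b, had a difference of similar size the other way (-1.62) and was not called. Scn2b was found in 9 silent and 19 firing cells, while its summed level was 153 CPM in silent and 128 CPM in firing cells. The median of the group was -0.43 without silent cell 1 and 0.03 without firing cell 22, cells being numbered in order of deposit. In the set with no cell over 75% Rn45s, 3 of 8 members were called higher, beside 11.2% of all genes. Of the fibroblast growth factor homologous factors, which bind sodium channels inside the cell, Fgf13 was found in 6 silent and 4 firing cells, with a difference of 1.01 at the limit of the call and 0.59 to 1.28 with any 1 cell left out.

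The sodium leak complex was measured through 3 eligible genes. Nalcn, the pore, was at 0, 0 and 250 CPM in the lowest, median and highest silent cell, against 0, 0.271 and 162 CPM in firing cells. The groups overlapped over nearly their whole range, with 5 of 18 silent (27.8%) and 7 of 24 firing cells (29.2%) at 10 CPM and a log2 difference of -0.08. Its partner Unc80 was found in 7 silent and 12 firing cells (-0.36), and Unc79 in 3 and 12, with a difference of -1.76 that was just past the limit for a lower call and ran from -2.05 to -1.58 with any 1 cell left out.

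Potassium channel genes mostly lay near the median gene. Of 13 eligible voltage-gated potassium channel genes 0 were called higher and 1 lower (7.69%, beside 11.5% of all genes). Of 3 two-pore and inward-rectifier genes 0 were called, and of 2 calcium-activated potassium channel genes 0 were called. Kcnk2, the leak channel TREK-1 (chromosome 1, 189207930 to 189402273), was found in 3 silent and 8 firing cells (-0.84). Of 8 voltage-gated calcium channel genes 1 was called lower (12.5%, beside 11.5%), the auxiliary subunit gene Cacna2d1 (-1.79, 4 silent and 11 firing cells). The 1 eligible TRP channel gene, Trpc5, differed by -0.70.

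Genes of synaptic input and of ion pumps held few calls, all of them lower in the full set. Of 11 GABA receptor genes 0 were called higher and 2 lower (18.2%, beside 11.5% of all genes). Without the 4 cells over 75% Rn45s 4 of 12 were lower and 1 higher, beside 13.8% and 11.2% of all genes. Of 7 ionotropic glutamate receptor genes Grin2b alone was called lower (-1.89, or 14.3% of the list), and 0 were called higher. Without the 4 cells 2 of 8 were lower and 2 higher, beside 13.8% and 11.2% of all genes. Of 13 genes of ion pumps and chloride transporters 3 were called lower (23.1%, beside 11.5% of all genes) and 0 higher. Without the 4 cells 3 of 14 were lower and 3 higher, beside 13.8% and 11.2%. The 3 called lower in the full set included Atp2b1 (-1.94) and Atp2b4 (-2.03), which pump calcium out of the cell. Atp2b1 was found in 8 silent and 16 firing cells and Atp2b4 in 2 and 9.

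Immediate early and other activity-regulated genes, which neurons transcribe after firing and calcium entry, were called lower in 6 of 21 eligible members (28.6%) and higher in 0, beside 11.5% and 3.47% of all eligible genes. Slices and whole-cell recording can themselves induce such genes, and both groups went through both steps. Fos, the most used marker of neuronal activity, was abundant in both groups. It was at 4.42, 697 and 4040 CPM in the lowest, median and highest silent cell, against 9.77, 898 and 11190 CPM in firing cells. The groups overlapped through most of their range, with 16 of 18 silent and 23 of 24 firing cells at 10 CPM and a difference of -0.84, close to the median gene. Egr1, another widely used marker, differed by -0.03 and was found in 18 silent and 23 firing cells.

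The 6 called members were Atf3, Jun, Egr4, Arc, Junb and Nr4a1. Atf3, a stress- and injury-responsive transcription factor, was at 0, 1.58 and 553 CPM in the lowest, median and highest silent cell, against 0, 150 and 1391 CPM in firing cells. It was found in 4 silent and 13 firing cells (-2.65), so that firing cells with no Atf3 still overlapped with most silent cells. Jun, a subunit of the factor AP-1, was found in 9 silent and 19 firing cells (-2.47), and Egr4, a zinc finger factor, in 6 and 15 (-2.22). Arc, which acts in the trafficking of synaptic glutamate receptors, was found in 2 silent and 8 firing cells (-1.96, or -2.43 to -1.64 with any 1 cell left out). Junb, which shares exon sequence with Prdx2, was found in 11 silent and 18 firing cells (-1.91, or -2.22 to -1.66). Nr4a1, an orphan nuclear receptor, was at 0, 2.10 and 517 CPM in silent cells, against 0, 66.2 and 3293 CPM in firing cells, and differed by -1.82, or -2.16 to -1.54 with any 1 cell left out. Without the 4 cells over 75% Rn45s 4 of 24 eligible members (beside 13.8% of all genes) were called lower, and Nr4a1 (-1.15) and Junb (-1.25) were not among them. Over the 30 listed genes a silent cell held a median of 10 at 10 CPM (range 1 to 19) and a firing cell 13 (3 to 26).

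The promoters of 3 of these genes and of Fos are shown because CREB, a calcium-driven activator of the class, binds the cyclic AMP response element. Each line gives the 250 bases before a RefSeq start of the gene on GRCm38.p6, 5′ to 3′ on the gene's strand. The half-site TGACG, or its complement CGTCA on the other strand, is in capitals. For Nr4a1 and Atf3 this start lies inside the gene as GENCODE M21 gives it, so other starts further upstream are not shown. Nr4a1 lies on the plus strand at chr15:101266596-101266845, Egr4 on the minus strand at chr6:85513590-85513839, Atf3 on the minus strand at chr1:191183334-191183583 and Fos on the plus strand at chr12:85473640-85473889.
Nr4a1: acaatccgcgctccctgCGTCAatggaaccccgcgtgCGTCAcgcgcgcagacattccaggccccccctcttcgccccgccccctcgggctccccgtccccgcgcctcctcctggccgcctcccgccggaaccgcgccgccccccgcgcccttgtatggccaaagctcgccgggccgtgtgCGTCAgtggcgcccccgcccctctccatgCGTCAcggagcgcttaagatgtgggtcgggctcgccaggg
Egr4: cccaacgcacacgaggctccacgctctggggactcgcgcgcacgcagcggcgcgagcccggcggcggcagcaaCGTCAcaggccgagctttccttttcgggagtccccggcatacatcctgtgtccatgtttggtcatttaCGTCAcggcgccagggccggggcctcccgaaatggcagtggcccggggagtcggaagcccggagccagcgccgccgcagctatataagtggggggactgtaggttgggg
Atf3: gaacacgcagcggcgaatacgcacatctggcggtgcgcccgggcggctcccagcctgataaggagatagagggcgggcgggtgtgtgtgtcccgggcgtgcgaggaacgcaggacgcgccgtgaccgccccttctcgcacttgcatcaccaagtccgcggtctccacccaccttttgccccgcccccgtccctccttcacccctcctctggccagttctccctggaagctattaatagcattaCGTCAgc
Fos: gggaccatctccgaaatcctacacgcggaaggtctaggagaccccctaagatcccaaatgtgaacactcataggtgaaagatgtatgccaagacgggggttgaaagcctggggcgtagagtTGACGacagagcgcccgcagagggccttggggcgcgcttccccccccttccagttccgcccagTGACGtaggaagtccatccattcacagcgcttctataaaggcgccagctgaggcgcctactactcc
Nr4a1 holds 4 half-sites, which begin 233, 213, 69 and 40 bases before the start, and Egr4 holds 2, at 177 and 109 bases. Atf3 holds 1, at 7 bases, and Fos, not called, holds 2, at 129 and 66 bases. Among 24 listed genes with a RefSeq promoter, 16 (66.7%) hold the half-site in at least 1 promoter. Counted by promoter and not by gene, the shares were 17.8% of all 32851 promoters and 29.6% of those of eligible genes. A gene with several promoters has more chances to hold a site, so the 66.7% cannot be set directly against these shares. The half-site stands in 4 of 5 members called lower, 7 of 13 eligible members not called and 5 of 6 members that were not eligible. The letters thus occur in called and uncalled members alike, and a match is not a measured binding site.

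Genes of calcium-binding proteins and their kinases were called only in the lower direction in the full set of cells. Calb1, the calcium buffer calbindin (chromosome 4, 15881264 to 15908064), was at 0, 2.55 and 816 CPM in the lowest, median and highest silent cell, against 0.486, 180 and 2110 CPM in firing cells. It was found in 8 of 18 silent cells (44.4%, 21.5 to 69.2%) and 19 of 24 firing cells (79.2%, 57.8 to 92.9%), with a difference of -3.07, and 7 silent cells but 0 firing cells had no count. Pnck, a calmodulin-dependent protein kinase (chromosome X, 73655994 to 73660117), was at 0.613, 8.79 and 900 CPM in silent cells, against 0.577, 264 and 1975 CPM in firing cells. Both groups held cells at either end, with 9 silent and 19 firing cells at 10 CPM and a difference of -1.92. With totals without Rn45s Pnck was not called (-1.59). With Hpcal4, a neuronal calcium sensor (-1.87), these were the 3 of 21 members called lower, and 0 were called higher. That is 14.3% lower, near the 11.5% of all eligible genes. The median difference of the list was -1.02, beside -0.74 for the median gene.

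Among 31 neuropeptide genes 6 were eligible, of which 1 was called higher (16.7%, beside 3.47% of all genes) and 0 lower. Trh, which encodes thyrotropin-releasing hormone (chromosome 6, 92242061 to 92244650), was at 0, 1.16 and 1117 CPM in the lowest, median and highest silent cell, against 0, 0 and 570 CPM in firing cells. High levels occurred in few cells of either group, 6 of 18 silent (33.3%, 13.3 to 59.0%) and 3 of 24 firing cells (12.5%, 2.66 to 32.4%), and the difference was 1.78. Avp, for vasopressin, was found in 6 silent and 15 firing cells but differed by only -1.12. Sst, for somatostatin, was found in 5 cells of each group (0.24), and Adcyap1, for the peptide PACAP, which marks warm-responsive preoptic neurons, in 5 silent and 6 firing cells (-0.12). Bdnf, which marks part of the same neurons, was found in 4 silent and 6 firing cells (-0.45). Of 10 genes of granins and peptide processing 2 were lower (20%, beside 11.5% of all genes) and 0 higher, the granins Chga (-2.45) and Chgb (-2.13). Without the 4 cells over 75% Rn45s 2 of 10 were lower and 2 higher, beside 13.8% and 11.2% of all genes. The 1 eligible gene of monoamine, acetylcholine and nitric oxide synthesis was not called.

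Ptgds, a prostaglandin D synthase, was found in 18 of 18 silent cells and 21 of 24 firing cells and differed by 0.35, yet its summed level was 625 CPM (615 to 636) in silent and 5227 CPM (5205 to 5249) in firing cells. Firing cells 2 and 14 made up most of that sum, which was 2886 CPM without cell 2 and 1502 CPM without both. The direction of Ptgds therefore rests on how cells are averaged.

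Pan-neuronal genes were all lower in the mean: of 18, 4 were called lower (22.2%, beside 11.5% of all genes) and 0 higher. The median difference was -1.36, and 15 stood below the median gene. The 4 were Gap43 (-2.54), a protein of growing axons, Elavl4 (-2.02), an RNA-binding protein, Uchl1 (-1.94), a ubiquitin hydrolase, and Stmn2 (-1.90), a tubulin-binding protein. Summed over cells Elavl4 went the other way, at 128 CPM in silent and 97.0 CPM in firing cells, so its direction rests on how cells are averaged. With the 4 cells over 75% Rn45s left out, 4 of 18 were called lower, beside 13.8% of all genes, but Uchl1 (-1.10) and Stmn2 (-1.17) were not among them. Neither was called with totals without Rn45s (-1.55 and -1.54). Whether less neuronal RNA was recovered or less was expressed in silent cells cannot be told apart, and this holds for each group of lower genes.

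Genes of the synaptic vesicle cycle gave 5 lower and 1 higher call of 24 (20.8% and 4.17%, beside 11.5% and 3.47% of all genes). Rab3a, the main Rab GTPase of synaptic vesicles (chromosome 8, 70754679 to 70758677), was at 0.613, 322 and 1395 CPM in the lowest, median and highest silent cell, against 8.52, 680 and 2083 CPM in firing cells. The groups overlapped above 10 CPM, and the difference of -3.04 came with 6 silent cells and 1 firing cell below that level. It was -1.59 without the 4 cells over 75% Rn45s, and Rab3a was still called. Its relative Rab3b, in the same protein family, was called higher, at 0, 6.04 and 749 CPM in silent cells, against 0, 0.820 and 330 CPM in firing cells, with 9 silent and 7 firing cells at 10 CPM and a difference of 1.52. Rab3a and Rab3b therefore stood on opposite sides of the median gene, although the Rab3a exons overlap Mpv17l2 and those of Rab3b an uncharacterized transcript. The other members called lower included Napa (-2.43), Vamp1 (-2.07) and Synj1 (-1.78), which act in membrane fusion and vesicle recycling. Syt4 (-1.87) was called lower too, but its summed level was 330 CPM in silent and 256 CPM in firing cells. Without the 4 cells neither Synj1 (-1.16) nor Syt4 (-0.99) was called. There 4 of 24 members were lower and 1 higher, beside 13.8% and 11.2% of all genes. Among the lower was a member not called in the full set.

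Cytoskeletal and metabolic genes were called in the lower direction where they were called. Of 22 genes of microtubule proteins and stathmins 8 were lower (36.4%, beside 11.5% of all genes) and 0 higher, among them Map7d1 (-2.76), Map6 (-2.73), Tubb4a (-2.33), Tppp3 (-2.27) and Mapt (-1.84), which encode tubulin or proteins that bind it. Without the 4 cells over 75% Rn45s 7 of 22 were lower, beside 13.8%. Of 27 motor genes 4 were lower (14.8%, near the 11.5% of all genes) and 0 higher. Among the 4 were Dync1i1, Ndel1 (-2.57) and Dynll1 (-2.17) of the dynein system. Dynll1 was not called without the 4 cells (-1.22), and Mapt not with totals without Rn45s (-1.67). Of 31 proteasome genes 8 were lower (25.8%, beside 11.5% of all genes) and 0 higher. Without the 4 cells 5 of 31 were lower, beside 13.8% of all genes. Of 73 nuclear genes of oxidative phosphorylation 14 were lower (19.2%, beside 11.5% of all genes) and 0 higher. Without the 4 cells 11 were lower and 3 higher, beside 13.8% and 11.2% of all genes. The citric acid cycle gave 4 lower of 15 (26.7%, beside 11.5%), Cs, Pdha1 (-2.34), Fh1 (-1.86) and Sucla2 (-1.77), and glycolysis 0 of 13. Sucla2 was not called without the 4 cells (-0.65), which left 3 lower of 15, beside 13.8% of all genes. Heat shock proteins and chaperones gave 3 lower of 20 (15%, beside 11.5% of all genes), Hspa4 (-2.28), Dnaja2 (-2.16) and Dnajb1 (-1.75). Dnajb1 was not called without the 4 cells (-0.68) or with totals without Rn45s (-1.45). Among preoptic transcription factors 1 of 4 was lower (25%, beside 11.5%), Isl1 (-1.81). No member of any of these lists was called higher in the full set of cells.

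**Figure D4:**
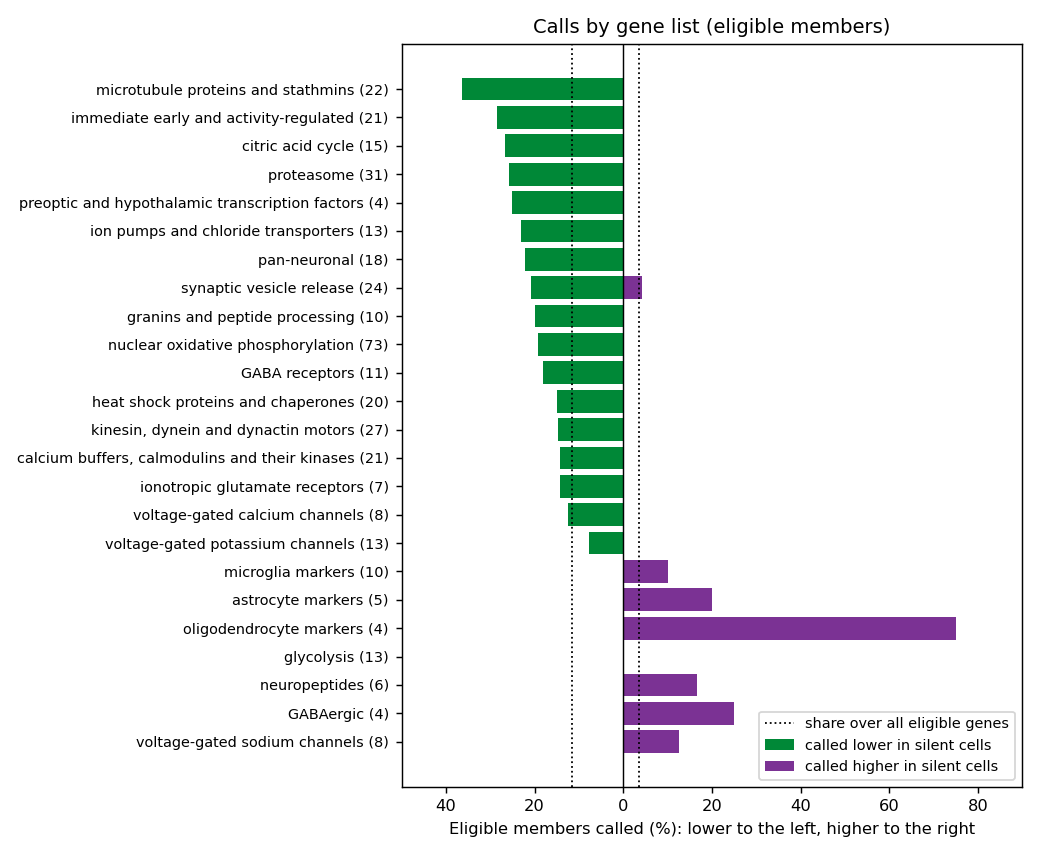
Percentage of the eligible members of each gene list called lower (left) and higher (right) in silent than in firing cells, for lists with at least 4 eligible members, whose number stands in brackets. Dotted lines mark the shares over all eligible genes, 11.5% lower and 3.47% higher. Microtubule genes reach 36.4% lower and immediate early genes 28.6%, and most plotted lists with a lower call pass the line; GABAergic genes and oligodendrocyte, astrocyte and microglia markers are among the lists past the line for higher calls, each through 1 to 3 genes.

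Markers of other cell types were measured because a pipette passes through tissue. Of 12 oligodendrocyte markers 4 were eligible, 3 of which were called higher in silent cells (75%, beside 3.47% of all genes) and 0 lower. Among the 3 were Mobp and Cnp (1.73), which encode myelin proteins. The summed level of the list was 6.57 CPM in the lowest, 1430 in the median and 13423 CPM in the highest silent cell, against 3.89, 503 and 6098 CPM in firing cells. Both groups thus held cells with nearly none and cells with far higher levels, and Aspa, an enzyme of mature oligodendrocytes, was at 0 in all 42 cells. Among the cells at or under 75% Rn45s, 4 of 4 eligible markers were higher, beside 11.2% of all genes. Of 10 eligible microglia markers 1 was higher (10%, beside 3.47% of all genes) and 0 lower. The summed levels of the list were 7.39, 906 and 21495 CPM in silent cells, against 3.40, 496 and 16144 CPM in firing cells. The called marker was C1qb (1.23, or 0.92 to 1.55 with any 1 cell left out, and 0.56 within title letters). Summed over cells C1qb went the other way, at 522 CPM in silent and 760 CPM in firing cells. Of 5 eligible astrocyte markers 1 was higher (20%, beside 3.47%), S100b (1.36, or 0.98 to 1.61), and 0 lower. The 1 eligible marker of oligodendrocyte precursors was not called. No endothelial, mural, ependymal or red blood cell marker was eligible. The part of other cells' RNA in the genes above was not tested.

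A second comparison of silent with firing cells shares no cell with the first: 10 silent temperature-sensitive cells against 26 warm- or cold-sensitive cells not labelled silent. There 19.7% of 2676 eligible genes were called higher and 18.9% lower, 38.5% in either direction. Of 2472 genes eligible in both comparisons 1284 (51.9%) lay on the same side of the median gene. Of 60 genes called higher in silent insensitive cells 27 (45%) had the same sign in sensitive cells and 13 (21.7%) were called the same way, beside 16.9% of all genes eligible in both. More of the 60, 21 (35%), were called the opposite way, lower in silent sensitive cells, beside 19.7%. Of 363 called lower 207 (57.0%) had the same sign and 83 (22.9%) were called the same way, beside 19.7%. The shares called the same way were thus near the background in both directions.

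Single genes differed in this respect. Of the 12 genes named by rank as higher, 5 lay on the same side of the median gene in sensitive cells and 1, Mobp, was called higher. Of the 12 lower genes 10 did and 2 were called lower. Trh was called higher in both, found in 4 of 10 silent and 4 of 26 firing sensitive cells (1.49). All 5 neuropeptide genes eligible among sensitive cells were called higher there, beside 19.7% of all genes. Avp (1.72) and Tac1 (1.81) were among them, with negative differences in silent insensitive cells (-1.12 and -0.62). Mobp (1.57) and Rab3b (1.59) were also called higher in both comparisons. In contrast to Mobp, the myelin gene Mbp (-1.32), Plekhb1 (-1.81) and Clk4 (-1.06) were called lower in silent sensitive cells. Calb1 (-1.81), Pnck (-4.05), Rab3a (-1.17) and Srp14 (-1.21) were lower in both, with Pnck in 0 of 10 silent and 18 of 26 firing sensitive cells. Gad1 was higher in silent insensitive cells (1.53) and lower in silent sensitive cells (-2.63), where 3 of 10 silent and 16 of 26 firing cells held it. Slc17a6 was lower by 0.83 in silent sensitive cells and not called, in 2 of 10 silent and 10 of 26 firing cells. Cs (0.27) and Atf3 (0.17) did not follow, and Egr4 was called lower in silent insensitive cells (-2.22) and higher in silent sensitive cells (1.47). Of the immediate early list 4 of 19 members were higher and 1 lower among sensitive cells. The microtubule list gave 5 higher and 3 lower of 19 there, beside 19.7% and 18.9% of all genes. Its members Tppp3 (2.31), Mapre2 (2.21) and Tuba4a (1.19), called lower in silent insensitive cells, were called higher in silent sensitive cells. The difference between the 2 comparisons was not tested.

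**Figure D5:**
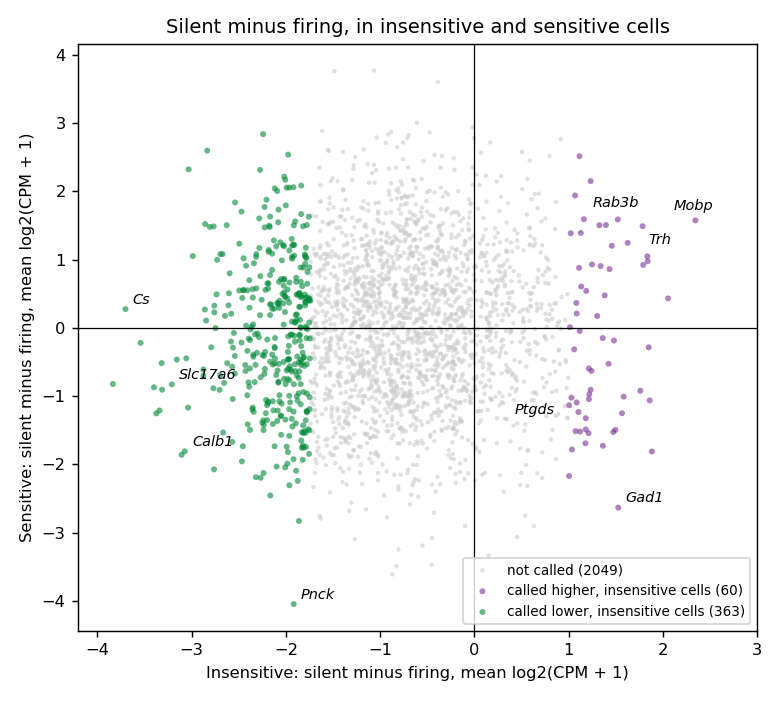
Silent minus firing difference of mean log2(CPM + 1) in temperature-insensitive cells (horizontal axis, 18 against 24 cells) and in temperature-sensitive cells (vertical axis, 10 against 26 cells) for 2472 genes eligible in both. Points spread over both sides of both axes, with Trh, Mobp and Rab3b at the upper right, Pnck and Calb1 at the lower left and Gad1 at the lower right.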

How the data were processed

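Counts per gene and cell were deposited by the authors as whole numbers; the submitters' processing notes name FastQC, STAR, edgeR and mm10 with no versions, and of the annotation, counting step and strand nothing is given in the sources used here. The deposited normalized signal table equals the counts divided by a constant per cell and served as an alternative. Cells were grouped by the temperature class in the labels. CPM are counts over the total of the cell, with Rn45s kept in it, and differences are of mean log2(CPM + 1) with a pseudocount of 1. The genes named are the 12 per direction with the largest called difference whose share and summed level have the same sign and which keep at least 66.7% of their size when any 1 cell is left out, plus 15 always named and up to 4 per list with the largest differences; unnamed, clone, predicted and ribosomal protein genes were passed over. Genes counted in a list but not named, among them some with a call, are not reported here. The genes, lists and members were chosen with earlier results of these data known, from 36 lists with 653 genes. Genes singled out beyond this rule (such as pore genes and Egr1) were chosen after their values were seen. Alternatives were other detection limits, pseudocounts, size factors and totals, thinning, summed counts, title letters, other call rules and leaving out cells. The steps were checked on simulated data. Software was R 4.3.3 with edgeR 4.0.16 and DESeq2 1.42.0 for alternative size factors only, and Python 3.11.15 with matplotlib 3.10.9, scipy 1.17.1, pandas 2.3.3 and numpy 2.4.6. Coordinates of genes are from GENCODE M21 and promoters from RefSeq.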

Additional observations from a re-analysis of the deposited data

How the results depend on the processing

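No paired analysis was possible because each title code stands for 1 cell, no label ties a silent to a firing cell, and replicate numbers only name cells. The median difference was negative under every setting tried (-1.10 to -0.18). Against 168 genes called higher and 557 genes called lower, there were 302 and 946 with a pseudocount of 0.1 CPM, 26 and 140 with 10 CPM, 793 and 975 with cells thinned to 200000 counts outside Rn45s, 416 and 886 from summed counts, and 740 and 946 without the 4 cells over 75% Rn45s and with totals without Rn45s, an alternative added after seeing the data. Higher calls were 356 with DESeq2 size factors, 314 with totals without Rn45s, 585 without cells over 75% Rn45s and 680 relative to the median gene only. Lower calls were 1516 with no limit on low genes and 1816 without the median gene subtracted. With any 1 cell left out they ran from 120 to 222 higher and 515 to 565 lower. At 1 count, Slc17a6 was found in 44.4% of silent and 83.3% of firing cells, Gad1 or Gad2 without Slc17a6 in 16.7% of firing cells, and 49.6% of genes eligible in both comparisons had the same sign. Without cells over 75% Rn45s 63.5% of lower genes had the same sign in sensitive cells, and with totals without Rn45s as well 92.9% of silent cells held Gad1 or Gad2 without Slc17a6. The sum of Ptgds without 2 firing cells was also added after seeing the data. Depth outside Rn45s, lower in silent cells, limits every share, and the cause of these shifts was not tested.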
